A study of Homo sapiens with 12 samples.

Results

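The genes described here are 58 that run mitosis: the cyclins and kinases that start it, the kinetochore and its checkpoint, the proteins that part the sister chromatids, condensin, and the factors that transcribe the set. They were chosen by name, with earlier results of these data known. Kinesin family genes were left out of the choice except for CENPE. All 58 matched a row in the count table of each cell line, out of 58302 genes per table. All 58 passed the filter on low counts in every comparison.

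Division in human cells begins when CDK1 binds A- and B-type cyclins, a step held back by the kinases WEE1 and PKMYT1 and released by the CDC25 phosphatases. Polo and aurora kinases then build the spindle, kinetochores assembled on centromeric chromatin couple chromosomes to microtubules, and the spindle checkpoint keeps CDC20 from activating the anaphase-promoting complex until every chromosome is attached. Once it is active, securin is destroyed, separase cuts cohesin and the cell divides. Most of these genes are transcribed late in the cell cycle, through B-MYB (MYBL2), FOXM1 and the MuvB complex, which reads a short promoter element called the cell cycle genes homology region (CHR). NF-Y, which binds CCAAT boxes, acts on many of the same promoters.

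RNA was sequenced from the established human non-small-cell lung cancer lines H1703 (NCI-H1703) and H1299 (NCI-H1299). The groups were H1703 with SAHA, H1703 with DMSO, H1299 with SAHA and H1299 with DMSO, with 3 libraries each and 12 in all. SAHA (vorinostat) inhibits zinc-dependent histone deacetylases, and the DMSO libraries are its vehicle control. The protocol names a 24 h exposure, SAHA at 0, 2.5, 10 or 40 µM and a vehicle of 0.1% DMSO, but ties no dose to a library, so whether the lines received the same dose is unknown and a difference between lines cannot be told apart from a difference in dose. Nothing in the labels calls the replicates separate cultures, so the spread behind the p-values may be technical.

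Totals of the count columns ran from 14.4M to 19.4M per library. Mitochondrially encoded genes took 8.77% to 10.9% of counts in H1703 with SAHA against 5.44% to 6.27% with DMSO, and 4.0% to 4.23% in H1299 with SAHA against 1.96% to 2.22% with DMSO. The labels call the cells epithelial: all 6 epithelial markers averaged 1 CPM (counts relative to library size, with the sizes scaled by the trimmed mean of M values, TMM) or more in both H1703 groups, but 3 of 6 did in both H1299 groups, where EPCAM averaged 0.166 CPM with SAHA and 0.236 CPM with DMSO, and CDH1 0.162 CPM with SAHA and 0 with DMSO. Summed epithelial markers were 2950 to 3412 CPM with SAHA against 3979 to 4436 CPM with DMSO in H1703, and 1356 to 1584 CPM with SAHA against 589.8 to 613 CPM with DMSO in H1299. Of the markers of other cell types, the 5 fibroblast markers summed to 112 to 126 CPM with SAHA against 63.0 to 72.3 CPM with DMSO in H1703, and to 37.7 to 50.7 CPM with SAHA against 1.54 to 2.55 CPM with DMSO in H1299. The 4 endothelial markers summed to 7.73 to 9.99 CPM with SAHA against 0.817 to 1.15 CPM with DMSO in H1703, and to 15.1 to 20.1 CPM with SAHA against 1.54 to 1.81 CPM with DMSO in H1299. The 5 leukocyte markers summed to 24.2 to 43.0 CPM with SAHA against 12.7 to 28.5 CPM with DMSO in H1703, mostly CD14 (32.9 CPM with SAHA and 22.5 CPM with DMSO), and to 0.635 to 1.08 CPM with SAHA against 0.0604 to 0.906 CPM with DMSO in H1299, where PTPRC, the pan-leukocyte marker, averaged 0.0398 CPM with SAHA and 0.0377 CPM with DMSO. The SAHA and DMSO ranges overlap for the leukocyte markers in both lines and for no other list. The part of these shifts in the results below was not tested.

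Promoter sequences are given first because MuvB and NF-Y are known to bind there. Of the 58 genes, 47 had a promoter in the RefSeq table (GRCh38.p14; 250 bases before to 50 bases after each start). The letters of the CHR, TTTGAA or TTCGAA on either strand, stood in the promoters of 35 of these 47 (74.5%), compared with 19.5% of 27305 genes in the promoter table and 15.5% of the 12232 of them that were tested. TTTGAA alone was found in 32 (68.1%, against 18.2% of all). CCAAT on either strand (ATTGG on the printed strand where it lies on the other) also stood in 35 (74.5%), against 39.7% of all and 42.9% of tested genes. Both motifs lay in 1 window for 25 genes (53.2%), against 7.85% of all and 6.58% of tested genes. The motifs were searched independently of each other, a gene with several starts counted once if any of its windows held the letters, and a match is a description of the letters, not a binding site.

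The promoters of 5 genes show the arrangement, chosen after the expression values were seen: SPC25 and CCNB2, among the genes that fell furthest in H1703, PLK1, the central mitotic kinase, NCAPD2, whose fall was among the smaller ones, and MYBL2, whose window held neither motif. Each is given as the 160 bases before and 10 bases from the start, 5′ to 3′, with CHR letters (TTTGAA here) and CCAAT or ATTGG in capitals. They lie at chr2:168890421-168890590, minus strand (SPC25), chr15:59104986-59105155, plus strand (CCNB2), chr16:23678729-23678898, plus strand (PLK1), chr12:6493942-6494111, plus strand (NCAPD2) and chr20:43666954-43667123, plus strand (MYBL2).
SPC25: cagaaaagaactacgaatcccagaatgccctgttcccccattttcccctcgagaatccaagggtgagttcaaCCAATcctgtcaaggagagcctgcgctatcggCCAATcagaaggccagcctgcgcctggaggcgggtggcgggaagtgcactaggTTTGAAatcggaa
CCNB2: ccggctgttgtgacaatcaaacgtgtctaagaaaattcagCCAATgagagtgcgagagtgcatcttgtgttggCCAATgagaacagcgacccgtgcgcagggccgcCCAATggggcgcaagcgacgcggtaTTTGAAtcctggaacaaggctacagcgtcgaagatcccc
PLK1: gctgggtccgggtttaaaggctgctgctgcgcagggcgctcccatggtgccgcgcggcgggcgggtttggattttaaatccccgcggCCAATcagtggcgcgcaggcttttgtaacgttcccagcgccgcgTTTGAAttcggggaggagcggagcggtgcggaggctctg
NCAPD2: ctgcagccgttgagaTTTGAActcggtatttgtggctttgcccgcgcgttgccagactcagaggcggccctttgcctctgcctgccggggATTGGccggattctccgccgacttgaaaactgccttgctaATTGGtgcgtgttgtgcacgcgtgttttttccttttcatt
MYBL2: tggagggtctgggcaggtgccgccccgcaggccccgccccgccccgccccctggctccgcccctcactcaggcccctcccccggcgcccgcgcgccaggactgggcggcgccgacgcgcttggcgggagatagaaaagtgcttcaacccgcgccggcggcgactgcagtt
In SPC25, CCNB2 and PLK1 a CCAAT match lies upstream of CHR letters close to the start. The first of these letters is 3 bases before the start in SPC25 and 29 bases before it in CCNB2 and in PLK1. SPC25 holds another CHR match upstream of its CCAAT matches, outside the printed bases. In NCAPD2 the CHR letters begin 145 bases before the start. Its CCAAT matches lie on the other strand 70 and 30 bases before the start, with 2 more upstream of the CHR letters, outside the printed bases. Over the 64 windows of the 47 genes, 13 of 54 CHR matches began in the 25 bases just before the start, more than in any other bin of that width, and 22 of 88 CCAAT matches began between 75 and 50 bases before it. A site may be counted more than once where a gene has several starts, and positions in the windows of other genes were not counted. As a description, with no test, the 35 genes with CHR letters had a median log2 fold change of -3.38 in H1703 and -1.61 in H1299. The 12 without these letters had -3.58 in H1703 and -1.39 in H1299. In H1703 the values ran from -4.84 to -0.51 with the letters and from -4.49 to -2.05 without them. The median difference between the lines was -1.64 with the letters and -2.09 without them. Other spellings of the element were not searched, so a gene without these letters may still hold a CHR.

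**Figure D1:**
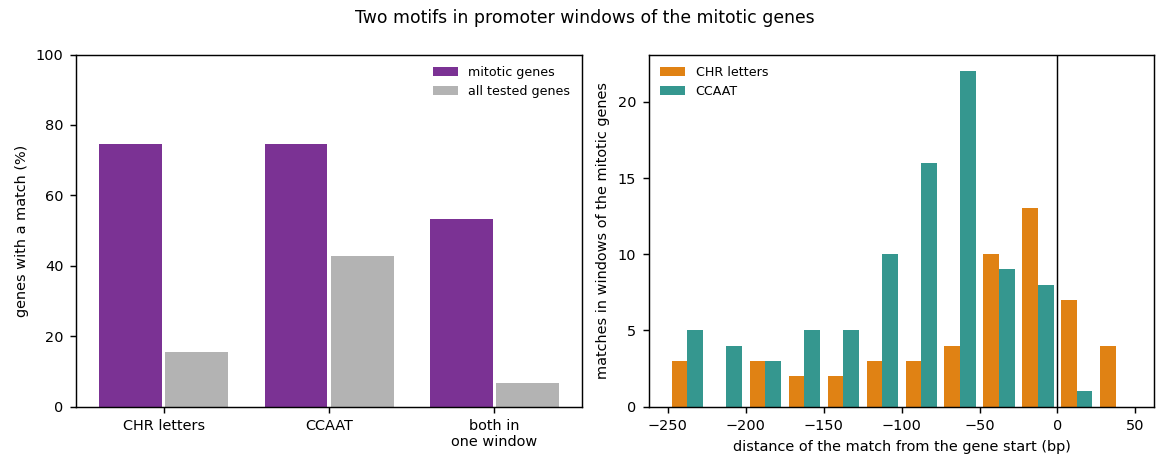
The left panel gives the percentage of genes whose promoter window holds CHR letters, CCAAT or both, for 47 mitotic genes (purple) and 12232 tested genes (grey), 74.5% against 15.5% for the CHR. The right panel counts matches in the mitotic genes' windows in bins of 25 bases by distance from the gene start: CHR letters are most frequent just before the start and CCAAT between 75 and 50 bases before it.

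The first comparison asked what SAHA did to these genes within each line. In H1703 all 58 fell, where 32.6% of the 17273 genes tested fell, and 56 fell 2-fold or more (14.9% of all genes did). In H1299, 56 of 58 fell, where 30.4% of 17277 genes tested did, and 51 fell 2-fold or more (11.1% of all). None rose in either line, where 34.7% of all genes did in H1703 and 33.3% in H1299, so that 67.4% changed in either direction in H1703 and 63.8% in H1299. The members' median log2 fold change, SAHA over DMSO, was -3.35 in H1703 and -1.60 in H1299, beside 0.018 in H1703 and 0.016 in H1299 over all genes tested. Here and below, fold changes are log2 values ± SE, tested with edgeR's quasi-likelihood method on 3 libraries a group, and a gene fell or rose if its Benjamini-Hochberg adjusted p over all genes tested was below 0.05. Each SE was worked back from that test, as the size of the fold change over the square root of its F statistic.

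The share of all counts that the 58 genes held shows the same fall without any fit. It was 0.0843%, 0.0809% and 0.0799% in the H1703 SAHA libraries, against 0.554%, 0.590% and 0.575% in the DMSO libraries. In H1299 it was 0.338%, 0.303% and 0.343% with SAHA, against 0.901%, 0.941% and 0.955% with DMSO. The groups did not overlap in either line. Gene by gene, every SAHA library lay below every DMSO library for all 58 genes in H1703 (35.9% of all genes tested) and for 56 in H1299 (31.3%). No gene lay wholly above (36.3% of all genes did in H1703 and 38.1% in H1299). The labels mark the repeat number as a batch, and within repeats 1, 2 and 3 the members' median was -3.18, -3.31 and -3.28 in H1703 and -1.47, -1.75 and -1.44 in H1299. Fewer cells in or near mitosis and less of each transcript per cell cannot be told apart in RNA from whole cultures.

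**Figure D2:**
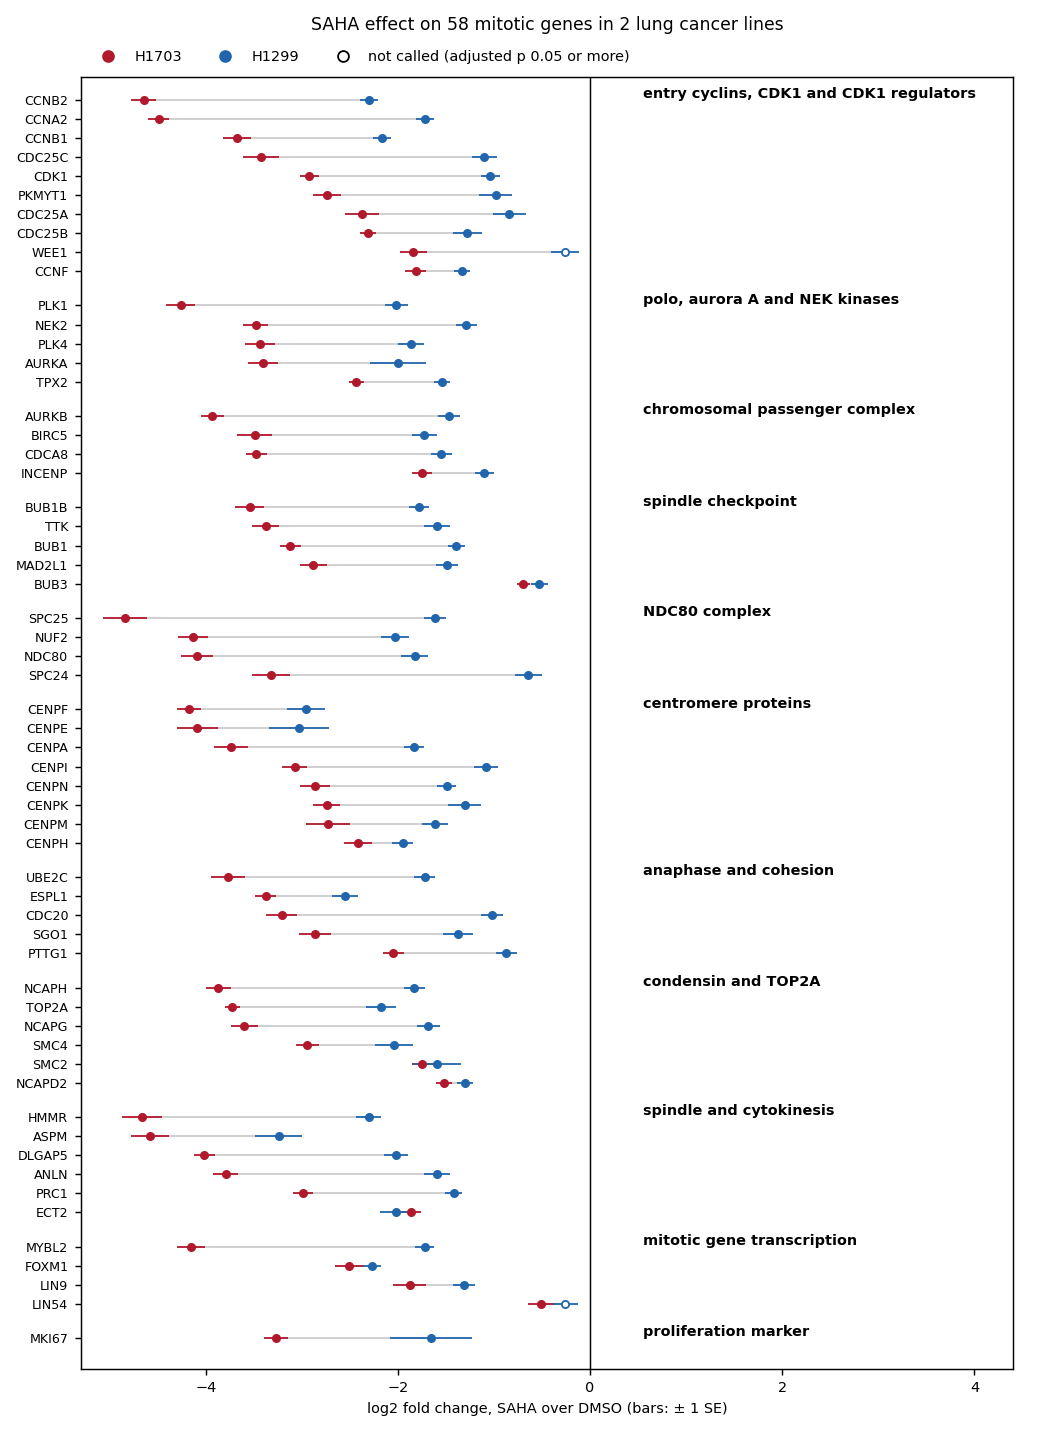
Each row is 1 of the 58 genes, grouped by role; points give the log2 fold change, SAHA over DMSO, in H1703 (red) and H1299 (blue), bars ± 1 SE, and open circles mark a gene that did not pass adjusted p below 0.05. All values lie below 0, the 2 open circles are WEE1 and LIN54 in H1299, and the red point lies left of the blue one for every gene except ECT2.

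The cyclins and CDK1 regulators fell in 10 of 10 cases in H1703 (median -2.83) and in 9 of 10 in H1299 (median -1.19). CCNB2, CCNA2 and CCNB1 fell furthest in each line. CCNB2 (ENSG00000157456, chr15:59105078-59125045), a B-type cyclin, had 3.46, 4.65 and 4.4 CPM in the SAHA libraries, against 111, 109.9 and 97.9 CPM in the DMSO libraries of H1703 (-4.65 ± 0.13, edgeR adjusted p = 9.2e-09). In H1299 CCNB2 had 31.9 ± 2.48 CPM with SAHA against 151 ± 7.0 CPM with DMSO (SD, n = 3), a fold change of -2.30 ± 0.09. CCNA2, cyclin A2, which overlaps EXOSC9, had 5.06, 4.88 and 4.27 CPM in the SAHA libraries, against 102, 114 and 108 CPM in the DMSO libraries of H1703. That is a fold change of -4.49 ± 0.11 (edgeR adjusted p = 5.5e-09), or 22.5-fold lower. In H1299 CCNA2 had 72.1, 66.6 and 81.9 CPM in the SAHA libraries, against 232, 244 and 223 CPM in the DMSO libraries, 3.29-fold lower (-1.72 ± 0.09, edgeR adjusted p = 8.6e-07). All SAHA libraries lie below the DMSO libraries of their line, and those of H1703 below those of H1299.

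CCNB1, the other B-type cyclin, changed by -3.68 ± 0.14 in H1703 and -2.16 ± 0.09 in H1299, and CDK1 itself by -2.92 ± 0.10 in H1703 and -1.04 ± 0.10 in H1299. CCNF, cyclin F, a ubiquitin ligase subunit that does not activate a CDK, had the smallest difference between lines of its class. It had 18, 16 and 18.5 CPM in the SAHA libraries, against 62.1, 68.1 and 56.5 CPM in the DMSO libraries of H1703 (-1.81 ± 0.11). CCNF had 38.2, 42.9 and 42.8 CPM in the SAHA libraries, against 98.6, 102 and 99.9 CPM in the DMSO libraries of H1299 (-1.33 ± 0.09). Of the CDC25 phosphatases, which activate CDK1, CDC25A changed by -2.38 ± 0.18 in H1703 and -0.84 ± 0.17 in H1299 and CDC25C by -3.43 ± 0.19 in H1703 and -1.10 ± 0.13 in H1299, the last overlapping the more abundant gene FAM53C, with which reads may be shared. CDC25B had the highest mean CPM of the class over all 12 libraries, though not in H1299. It had 104, 94.2 and 85.8 CPM in the SAHA libraries, against 464, 492 and 469.6 CPM in the DMSO libraries of H1703 (-2.31 ± 0.09, edgeR adjusted p = 3.7e-08). The H1299 levels were 70.1, 66.7 and 56.5 CPM in the SAHA libraries, against 133, 132 and 185 CPM in the DMSO libraries (-1.28 ± 0.15). It was higher in H1703 than in H1299 under either treatment.

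Of the kinases that inhibit CDK1, PKMYT1, which overlaps PAQR4, changed by -2.74 ± 0.14 in H1703 and -0.98 ± 0.17 in H1299. WEE1 fell in H1703, with 12.9, 11.4 and 14.4 CPM in the SAHA libraries, against 39.1, 52.5 and 48.8 CPM in the DMSO libraries (-1.84 ± 0.14, edgeR adjusted p = 2.9e-06). For H1299 the levels were 29.8, 24.6 and 32 CPM in the SAHA libraries, against 36, 36.5 and 27.4 CPM in the DMSO libraries, and the groups overlapped (-0.26 ± 0.14, edgeR adjusted p = 0.14). Without DMSO replicate 3, the lowest DMSO library, its H1299 value was -0.41 (edgeR adjusted p = 0.036).

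All 5 polo, aurora A and NEK genes fell in both lines, with medians of -3.43 in H1703 and -1.86 in H1299. PLK1 (ENSG00000166851, chr16:23677656-23690367), the polo kinase needed from entry to cytokinesis, had 6.06, 7.73 and 6.51 CPM in the SAHA libraries, against 119.6, 157 and 118 CPM in the DMSO libraries of H1703, 19.2-fold lower (-4.26 ± 0.15, edgeR adjusted p = 3.2e-08). In H1299 PLK1 had 32.3, 40.1 and 43.9 CPM in the SAHA libraries, against 151, 163 and 139 CPM in the DMSO libraries, 4.04-fold lower (-2.02 ± 0.12, edgeR adjusted p = 1.5e-06). The DMSO groups of the lines overlap for PLK1 and the SAHA groups do not. TPX2, which activates aurora A on the spindle, was the most abundant of the class and fell least in H1703: 55.1, 57.7 and 51.7 CPM in the SAHA libraries, against 297, 305 and 297 CPM in the DMSO libraries (-2.43 ± 0.07). In H1299 the levels were 215, 242 and 237 CPM in the SAHA libraries, against 640.4, 658 and 644 CPM in the DMSO libraries (-1.54 ± 0.08). Aurora A itself (AURKA) changed by -3.41 ± 0.16 in H1703 and -2.0 ± 0.29 in H1299. Its H1299 libraries are uneven, with 55.6, 34.4 and 55.6 CPM with SAHA and 221, 127 and 212 CPM with DMSO, where repeat 2 is the lowest of each group and the groups still do not overlap. PLK4, which controls centriole duplication, changed by -3.43 ± 0.16 in H1703 and -1.86 ± 0.14 in H1299, and NEK2, a kinase of centrosome separation, by -3.48 ± 0.13 in H1703 and -1.29 ± 0.11 in H1299.

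The chromosomal passenger complex corrects faulty attachments from the inner centromere. All 4 of its genes fell in both lines (medians -3.48 in H1703 and -1.51 in H1299). AURKB, its kinase, had 4.46, 5.0 and 4.67 CPM in the SAHA libraries, against 70.5, 66.9 and 81.5 CPM in the DMSO libraries of H1703 (-3.93 ± 0.12, edgeR adjusted p = 1.3e-08). Levels in H1299 were 24.2, 31.3 and 31 CPM in the SAHA libraries, against 75.6, 80 and 75.4 CPM in the DMSO libraries (-1.47 ± 0.12, edgeR adjusted p = 6.2e-06). With DMSO the AURKB levels of the lines overlap, whereas with SAHA every H1703 library lies below every H1299 library. CDCA8, borealin, had the highest mean CPM of the 4 over all 12 libraries, though not in H1703. It had 5.33, 6.45 and 5.72 CPM in the SAHA libraries, against 64.5, 68 and 65.2 CPM in the DMSO libraries of H1703 (-3.48 ± 0.11). CDCA8 had 49.9, 61.5 and 65.5 CPM in the SAHA libraries, against 162, 172 and 163 CPM in the DMSO libraries of H1299 (-1.55 ± 0.11). BIRC5, survivin, changed by -3.49 ± 0.18 in H1703 and -1.73 ± 0.13 in H1299. INCENP, the scaffold that holds the complex together, fell less: 34.5, 28.9 and 27.3 CPM in the SAHA libraries, against 103, 108 and 98.1 CPM in the DMSO libraries of H1703 (-1.75 ± 0.10). INCENP had 41.7, 46.9 and 41.7 CPM in the SAHA libraries, against 94.8, 81 and 93.1 CPM in the DMSO libraries of H1299 (-1.10 ± 0.10). In H1703, then, AURKB was 15.3-fold and INCENP 3.37-fold lower with SAHA.

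The spindle checkpoint genes fell in 5 of 5 cases in each line, with medians of -3.12 in H1703 and -1.49 in H1299. TTK, the MPS1 kinase that starts checkpoint signalling, had 3.93, 3.25 and 3.62 CPM in the SAHA libraries, against 37.1, 42.2 and 34.1 CPM in the DMSO libraries of H1703 (-3.38 ± 0.14, edgeR adjusted p = 6.1e-08). The levels in H1299 were 35.3, 25.5 and 33 CPM in the SAHA libraries, against 84, 88.6 and 99.7 CPM in the DMSO libraries (-1.59 ± 0.13). BUB1, a kinetochore kinase, changed by -3.12 ± 0.11 in H1703 and -1.39 ± 0.09 in H1299, BUB1B, the checkpoint protein BUBR1, by -3.54 ± 0.15 in H1703 and -1.78 ± 0.10 in H1299, and MAD2L1, which captures CDC20, by -2.88 ± 0.14 in H1703 and -1.49 ± 0.11 in H1299. BUB3 (ENSG00000154473, chr10:123154277-123170467), the common binding partner of BUB1 and BUBR1, changed least of the class. It had 137, 137 and 147 CPM in the SAHA libraries, against 229, 228 and 232 CPM in the DMSO libraries of H1703, 1.62-fold lower (-0.69 ± 0.07, edgeR adjusted p = 1.6e-05). The H1299 levels were 150.4, 144 and 170.5 CPM in the SAHA libraries, against 202, 220.2 and 223 CPM in the DMSO libraries, 1.44-fold lower (-0.53 ± 0.09, edgeR adjusted p = 0.00063). The groups do not overlap in either line, but after SAHA BUB3 averaged 140.2 ± 5.85 CPM in H1703, where TTK averaged 3.6 ± 0.338 CPM and BUB1B 4.69 ± 0.374 CPM (SD, n = 3).

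The NDC80 complex is the microtubule grip of the outer kinetochore, and its 4 subunits had the lowest class median in H1703 (-4.11), with -1.72 in H1299. SPC25 (ENSG00000152253, chr2:168834132-168913371) had 0.666, 0.93 and 0.46 CPM in the SAHA libraries, against 22.7, 17.3 and 21.1 CPM in the DMSO libraries of H1703. This was 28.7-fold lower (-4.84 ± 0.23, edgeR adjusted p = 1.5e-07), the furthest fall of the 58 genes, and it rests on 10, 16 and 7 counts in the SAHA libraries. In H1299 SPC25 had 14.9, 12.1 and 14.8 CPM in the SAHA libraries, against 40, 40.8 and 42.6 CPM in the DMSO libraries, 3.06-fold lower (-1.61 ± 0.12). NDC80 had 1.27, 0.988 and 1.25 CPM in the SAHA libraries, against 18.6, 22.1 and 19.8 CPM in the DMSO libraries of H1703 (-4.09 ± 0.17), where its SAHA libraries held 19, 17 and 19 counts. For H1299 the levels were 57, 39.8 and 54.4 CPM in the SAHA libraries, against 157, 179 and 181 CPM in the DMSO libraries (-1.83 ± 0.14), and even the SAHA libraries of H1299 lie above the DMSO libraries of H1703. NUF2, the partner of NDC80, had 2.0, 1.92 and 1.51 CPM in the SAHA libraries, against 29.5, 35.3 and 32 CPM in the DMSO libraries of H1703 (-4.13 ± 0.15). NUF2 had 15.2, 11.2 and 14 CPM in the SAHA libraries, against 47.7, 51.2 and 59.8 CPM in the DMSO libraries of H1299 (-2.03 ± 0.14). SPC24 changed by -3.32 ± 0.20 in H1703 but by only -0.64 ± 0.14 in H1299 (edgeR adjusted p = 0.0028), with 26.5, 21.1 and 29.2 CPM in the SAHA libraries, against 39.6, 34.1 and 41.7 CPM in the DMSO libraries there. The SPC24 counts are among those made uncertain by overlap between genes.

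All 8 centromere genes fell in both lines (medians -2.97 in H1703 and -1.72 in H1299). CENPF, a large kinetochore protein of late G2 phase and mitosis, had 9.26, 8.6 and 7.36 CPM in the SAHA libraries, against 136, 173 and 152 CPM in the DMSO libraries of H1703 (-4.17 ± 0.13, edgeR adjusted p = 1.4e-08). In H1299 the levels were 27.8, 17 and 23.7 CPM in the SAHA libraries, against 157, 153 and 203 CPM in the DMSO libraries (-2.96 ± 0.20, edgeR adjusted p = 1.3e-05). CENPF and the kinetochore motor CENPE (-4.09 ± 0.21 in H1703 and -3.03 ± 0.31 in H1299) were the members of the class furthest down in H1299. CENPA, the histone H3 variant that marks centromeres, changed by -3.74 ± 0.18 in H1703 and -1.83 ± 0.10 in H1299, and may share reads with the overlapping gene SLC35F6. The others belong to the constitutive centromere network. CENPI had 3.53, 4.53 and 3.62 CPM in the SAHA libraries, against 33.2, 33.6 and 33.1 CPM in the DMSO libraries of H1703 (-3.07 ± 0.13). CENPI had 24.3, 18.5 and 22.2 CPM in the SAHA libraries, against 43, 41.7 and 47.9 CPM in the DMSO libraries of H1299 (-1.08 ± 0.12). CENPH had 2.27, 2.32 and 2.37 CPM in the SAHA libraries, against 12.3, 12.8 and 12.6 CPM in the DMSO libraries of H1703 (-2.42 ± 0.14). CENPH had 9.74, 8.57 and 9.55 CPM in the SAHA libraries, against 33, 36.7 and 34 CPM in the DMSO libraries of H1299 (-1.95 ± 0.11). The difference between lines was the largest of the class for CENPI and the smallest for CENPH. CENPK changed by -2.74 ± 0.14 in H1703 and -1.31 ± 0.17 in H1299, CENPM by -2.73 ± 0.23 in H1703 and -1.61 ± 0.14 in H1299 and CENPN, which overlaps CMC2, by -2.86 ± 0.16 in H1703 and -1.49 ± 0.10 in H1299.

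Anaphase and cohesion genes fell in 5 of 5 cases in each line (medians -3.21 in H1703 and -1.37 in H1299). CDC20, the activator that the checkpoint restrains, had 19.4, 20.1 and 12.8 CPM in the SAHA libraries, against 159, 170.3 and 160.2 CPM in the DMSO libraries of H1703, 9.25-fold lower (-3.21 ± 0.16, edgeR adjusted p = 6.5e-07). Levels in H1299 were 177, 219 and 236 CPM in the SAHA libraries, against 387, 442 and 402 CPM in the DMSO libraries, 2.03-fold lower (-1.02 ± 0.11). The SAHA libraries of H1299 therefore lie above the DMSO libraries of H1703. ESPL1, separase, the protease that cuts cohesin, had 8.66, 8.31 and 7.1 CPM in the SAHA libraries, against 80.2, 87.2 and 86 CPM in the DMSO libraries of H1703 (-3.38 ± 0.11). The levels in H1299 were 20.4, 29.8 and 23.9 CPM in the SAHA libraries, against 142, 138 and 138 CPM in the DMSO libraries (-2.55 ± 0.13). PTTG1, securin, its inhibitor, changed less, by -2.05 ± 0.11 in H1703 and -0.87 ± 0.11 in H1299, and has near-identical copies in the genome that may share its reads. UBE2C, the ubiquitin carrier of the anaphase-promoting complex, changed by -3.76 ± 0.18 in H1703 and -1.72 ± 0.11 in H1299, and SGO1, shugoshin, which protects cohesin at centromeres, by -2.87 ± 0.17 in H1703 and -1.37 ± 0.15 in H1299.

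Condensin compacts chromosomes, and TOP2A untangles their DNA. All 6 genes of this class fell in both lines (medians -3.27 in H1703 and -1.76 in H1299), but the subunits of condensin did not fall alike. NCAPH, the subunit that bridges the ATPase heads, had 3.66, 3.54 and 4.4 CPM in the SAHA libraries, against 51.6, 61.4 and 58.7 CPM in the DMSO libraries of H1703 (-3.87 ± 0.13). NCAPH had 18.3, 18.5 and 22 CPM in the SAHA libraries, against 65, 71.3 and 65 CPM in the DMSO libraries of H1299 (-1.83 ± 0.11). NCAPG, which overlaps LCORL, changed by -3.60 ± 0.14 in H1703 and -1.69 ± 0.12 in H1299, and SMC4, which overlaps TRIM59 and IFT80, by -2.94 ± 0.12 in H1703 and -2.04 ± 0.20 in H1299. The other ATPase subunit, SMC2, had 24.2, 22.4 and 26.7 CPM in the SAHA libraries, against 79.9, 92.4 and 76.6 CPM in the DMSO libraries of H1703 (-1.75 ± 0.11). The H1299 levels were 69.8, 35.1 and 59.7 CPM in the SAHA libraries, against 142, 173 and 162 CPM in the DMSO libraries, with SAHA replicate 2 well below the others (-1.59 ± 0.25). NCAPD2, which overlaps MRPL51, changed by -1.52 ± 0.09 in H1703 and -1.30 ± 0.09 in H1299. In H1703, then, NCAPH and NCAPG fell 14.6-fold and 12.1-fold and SMC2 and NCAPD2 3.36-fold and 2.87-fold, subunits of a single complex. TOP2A was the most abundant of the class by CPM in H1703 with DMSO: 50.5, 50.5 and 46.7 CPM in the SAHA libraries, against 632, 685 and 662 CPM in the DMSO libraries (-3.73 ± 0.08, edgeR adjusted p = 3.9e-09). For H1299 the levels were 111, 71.8 and 103 CPM in the SAHA libraries, against 398, 413 and 433 CPM in the DMSO libraries (-2.18 ± 0.15).

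Spindle and cytokinesis genes fell in 6 of 6 cases in each line, and their H1299 median of -2.02 was the lowest of any class there (-3.90 in H1703). HMMR, a microtubule-binding protein of the spindle, had 2.0, 2.62 and 1.31 CPM in the SAHA libraries, against 46.7, 56.9 and 49.8 CPM in the DMSO libraries of H1703, 25.3-fold lower (-4.66 ± 0.21, edgeR adjusted p = 1.3e-07). In H1299 the levels were 27.5, 21.3 and 28.5 CPM in the SAHA libraries, against 108, 130.4 and 129 CPM in the DMSO libraries, 4.94-fold lower (-2.30 ± 0.13). ASPM, a spindle pole protein, changed by -4.58 ± 0.20 in H1703 and -3.24 ± 0.24 in H1299, the furthest fall of the 58 in H1299, and DLGAP5, which stabilises kinetochore fibres, by -4.01 ± 0.11 in H1703 and -2.02 ± 0.13 in H1299. ANLN, the anillin scaffold of the contractile ring, had 15.1, 15 and 11.3 CPM in the SAHA libraries, against 178, 211 and 191 CPM in the DMSO libraries of H1703 (-3.79 ± 0.13). ANLN had 135, 92.6 and 126 CPM in the SAHA libraries, against 328, 342 and 359 CPM in the DMSO libraries of H1299 (-1.60 ± 0.13). PRC1, which bundles midzone microtubules, changed by -2.99 ± 0.10 in H1703 and -1.42 ± 0.09 in H1299. ECT2 (ENSG00000114346, chr3:172750682-172821474), the exchange factor that activates RhoA for furrowing, had 49.6, 50.4 and 61.7 CPM in the SAHA libraries, against 190.2, 204 and 201 CPM in the DMSO libraries of H1703 (-1.86 ± 0.10, edgeR adjusted p = 3.0e-07). Levels in H1299 were 75.2, 46.1 and 57.8 CPM in the SAHA libraries, against 221, 228 and 250 CPM in the DMSO libraries (-2.02 ± 0.17, edgeR adjusted p = 2.4e-05). The ECT2 falls differed by less than the sum of their errors.

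**Figure D3:**
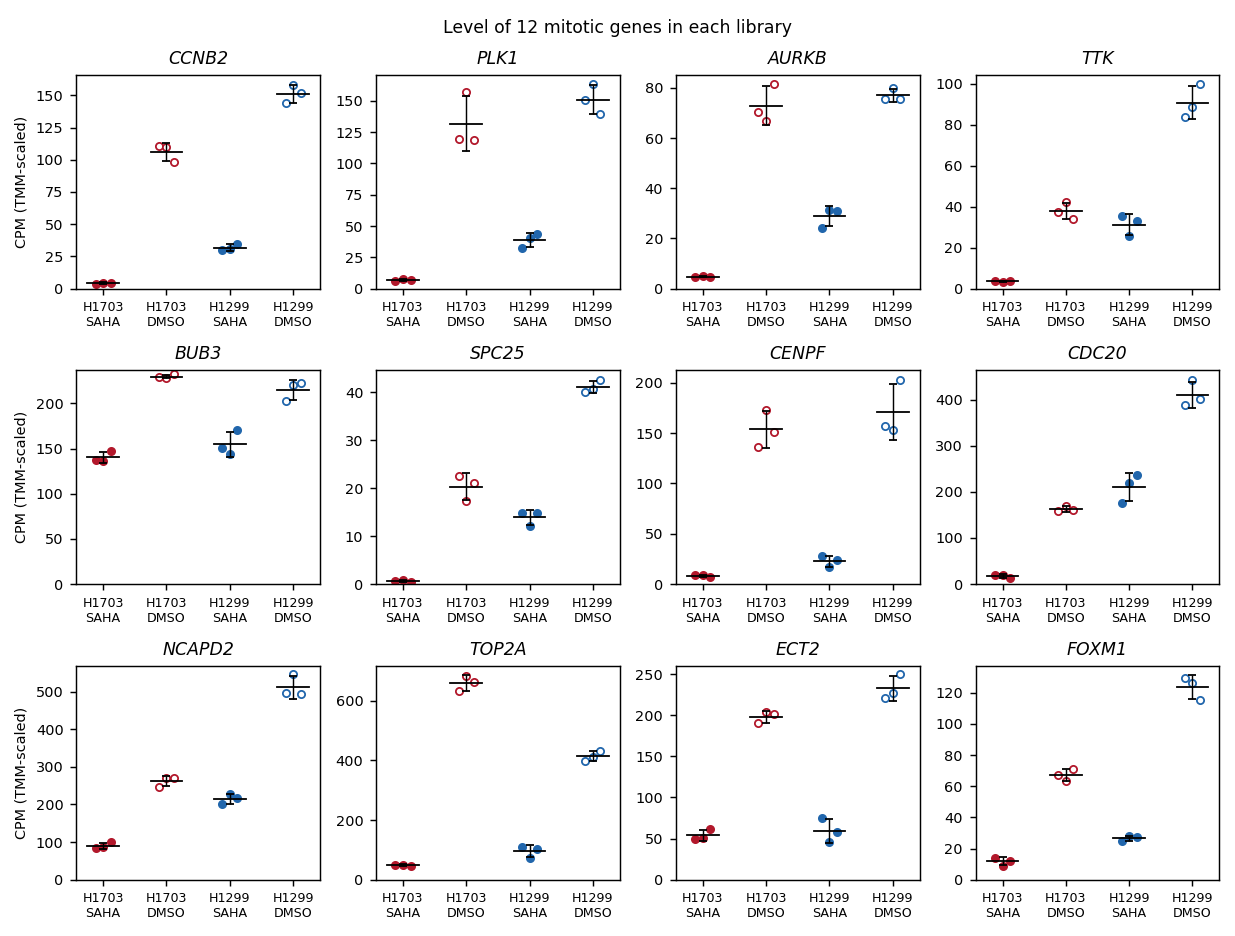
Level in CPM (TMM-scaled) of 12 mitotic genes in each of the 12 libraries, SAHA as filled and DMSO as open points, H1703 in red and H1299 in blue, with the mean and SD of 3 libraries. SAHA lies below DMSO for every gene drawn in both lines, and BUB3 keeps the largest share of its DMSO level.

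Of the genes that transcribe the set, all 4 fell in H1703 (median -2.19) and 3 of 4 in H1299 (median -1.52). MYBL2, the B-MYB factor, had 10.3, 10.4 and 7.03 CPM in the SAHA libraries, against 158, 174 and 168 CPM in the DMSO libraries of H1703, 17.8-fold lower (-4.15 ± 0.15, edgeR adjusted p = 2.9e-08). The levels in H1299 were 124, 131 and 152 CPM in the SAHA libraries, against 432, 454 and 407 CPM in the DMSO libraries, 3.3-fold lower (-1.72 ± 0.10). FOXM1, a forkhead factor of the same programme, had 14.1, 9.01 and 12 CPM in the SAHA libraries, against 67.2, 63.5 and 71.1 CPM in the DMSO libraries of H1703 (-2.50 ± 0.15). FOXM1 had 24.6, 27.8 and 27.4 CPM in the SAHA libraries, against 129.8, 126 and 115 CPM in the DMSO libraries of H1299 (-2.27 ± 0.09), and may share reads with the overlapping gene RHNO1. The FOXM1 difference between lines did not pass the test, and that of MYBL2 did. LIN9, a MuvB subunit, changed by -1.88 ± 0.17 in H1703 and -1.31 ± 0.12 in H1299. LIN54, the MuvB subunit that contacts the CHR, had 12.3, 11.7 and 15.5 CPM in the SAHA libraries, against 17.4, 19.1 and 20.4 CPM in the DMSO libraries of H1703 (-0.51 ± 0.14, edgeR adjusted p = 0.01). The H1299 levels were 30.4, 22 and 25.4 CPM in the SAHA libraries, against 27.8, 29.4 and 32.2 CPM in the DMSO libraries, with overlap between the groups (-0.26 ± 0.13, edgeR adjusted p = 0.12). Without SAHA replicate 1, the highest of its group, the H1299 value was -0.38 (edgeR adjusted p = 0.024).

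MKI67 (ENSG00000148773, chr10:128096659-128126385), which encodes the proliferation antigen Ki-67, had 18.6, 15.8 and 16.8 CPM in the SAHA libraries, against 169, 141 and 189 CPM in the DMSO libraries of H1703, 9.64-fold lower (-3.27 ± 0.13, edgeR adjusted p = 4.3e-08). For H1299 the levels were 88.2, 45.9 and 92.8 CPM in the SAHA libraries, against 172, 346 and 172 CPM in the DMSO libraries (-1.66 ± 0.42, edgeR adjusted p = 0.02). Repeat 2 holds both the lowest SAHA and the highest DMSO library, and within repeats 1, 2 and 3 the H1299 change was -0.96, -2.91 and -0.89. The groups do not overlap, but the H1299 call was lost with the repeat as a block (-1.62, edgeR adjusted p = 0.126), with no filter on low counts (-1.67, adjusted p = 0.060) and without SAHA replicate 1 (-1.78, adjusted p = 0.053).

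The second comparison asked whether the response differed between the lines, as an interaction in a single fit over the 12 libraries (H1703 minus H1299). Of the 58 genes, 51 had a lower log2 fold change in H1703, having fallen further there, and none had a higher one. Of the 19105 genes tested, risen ones included, 21.2% had a lower and 13.7% a higher fold change in H1703 (34.9% in either direction). The members' median difference was -1.65 on the log2 scale, beside -0.09 over all genes. With library totals as the only scaling, the median of all genes moved to -0.19 and that of the members to -1.75. The members minus all genes gave -1.56 under either scaling. A change of scaling shifts nearly all genes alike, so this subtraction removes it and is no separate check. With libraries of the lines matched by repeat number alone, the median difference of the members was -1.73, -1.67 and -1.91 for repeats 1, 2 and 3. Whether equal numbers belong together across the lines was not tested.

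The largest differences were those of SPC25 (-3.30 ± 0.26, edgeR adjusted p = 3.1e-07), CCNA2 (-2.84 ± 0.14, edgeR adjusted p = 5.7e-09) and SPC24 (-2.75 ± 0.25, edgeR adjusted p = 1.4e-06). Among the next were AURKB (-2.53 ± 0.17), MYBL2 (-2.50 ± 0.17), HMMR (-2.43 ± 0.25), CCNB2 (-2.42 ± 0.15), NDC80 (-2.34 ± 0.22), PLK1 (-2.32 ± 0.20) and CDC20 (-2.26 ± 0.21). At the other end, 7 genes did not pass: BUB3 (-0.24 ± 0.11, edgeR adjusted p = 0.11), NCAPD2 (-0.29 ± 0.12, 0.073), SMC2 (-0.23 ± 0.28, 0.58), FOXM1 (-0.30 ± 0.18, 0.21), LIN54 (-0.32 ± 0.20, 0.23), ECT2 (0.08 ± 0.20, 0.8) and CENPE (-1.13 ± 0.41, 0.051). A miss does not show equal responses. With the repeat as a block, CENPE passed (-1.09, edgeR adjusted p = 0.015), while CENPH (-0.54 ± 0.16 without the block) had an adjusted p of 0.060, LIN9 (-0.64 ± 0.20) of 0.056 and MKI67 (-1.68 ± 0.47) of 0.108. CENPH also missed with DESeq2 (adjusted p = 0.085), and LIN9 without any of 4 libraries (H1299 SAHA replicate 3, H1299 DMSO replicate 1, H1703 SAHA replicate 1 or H1703 DMSO replicate 2, adjusted p from 0.052 to 0.061).

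Across the 58 genes the falls in the lines went together as ranks (Spearman's rho 0.63, across genes that share libraries and are not independent replicates). The order is not the same: ASPM, CENPE and CENPF were the furthest down in H1299, and SPC25, HMMR and CCNB2 in H1703.

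**Figure D4:**
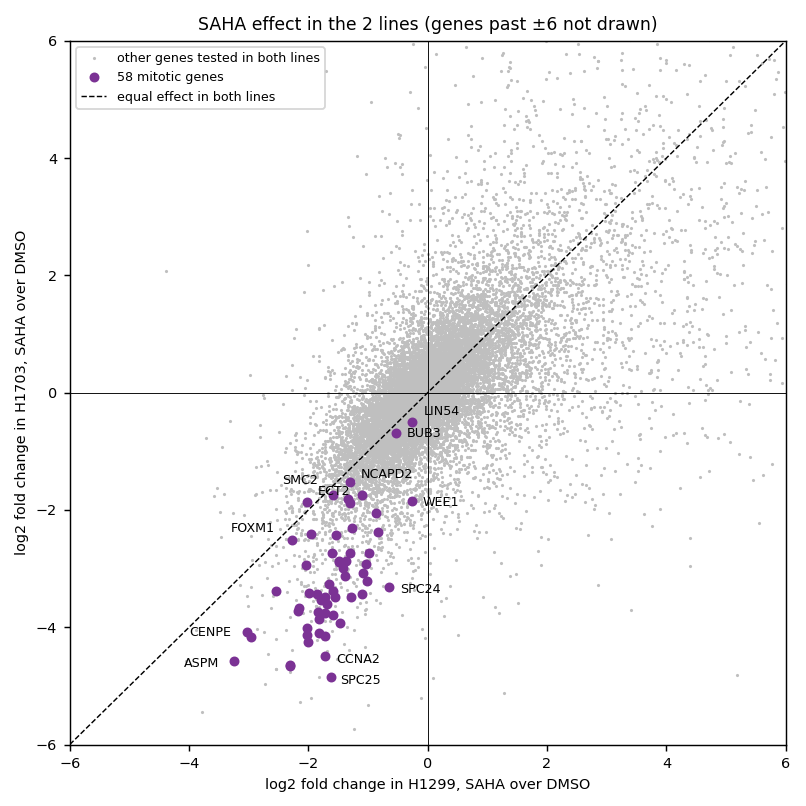
Log2 fold change, SAHA over DMSO, in H1703 (vertical) against H1299 (horizontal) for genes tested in both lines (grey) and the 58 mitotic genes (purple), with the dashed line at equal change. The mitotic genes lie in the lower left quadrant and, apart from ECT2, below the dashed line; LIN54 and BUB3 are nearest to 0 and SPC25 lowest.

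By role, the medians in H1703 ran from -2.19 (transcription, 4 genes) to -4.11 (NDC80 complex, 4 genes), and in H1299 from -1.19 (entry, 10 genes) to -2.02 (spindle and cytokinesis, 6 genes). Within repeats 1, 2 and 3 of H1703 the NDC80 medians were -3.78, -4.08 and -4.08, those of the centromere proteins -3.07, -3.09 and -3.19, and those of the checkpoint -2.86, -3.31 and -3.20. Polo, aurora A and NEK kinases stood at -3.58, -3.31 and -3.29, anaphase and cohesion at -3.02, -3.08 and -3.58, condensin with TOP2A at -3.19, -3.26 and -3.31, and spindle and cytokinesis at -3.74, -3.92 and -4.06. The NDC80 values overlap those of spindle and cytokinesis and lie below the others in that list. In H1299 the same classes had within-repeat medians of -1.44, -1.96 and -1.62 (NDC80), -1.64, -1.76 and -1.64 (centromere), -1.25, -1.54 and -1.39 (checkpoint), -1.57, -1.88 and -1.66 (kinases), -1.46, -1.17 and -1.25 (anaphase), -1.46, -2.12 and -1.55 (condensin) and -1.64, -2.32 and -1.99 (spindle and cytokinesis). There the NDC80 values overlap those of every other class in that list. Differences between classes were not tested, since their few genes are not replicates, and members of some classes lie far apart: the range within the checkpoint was 2.85 in H1703, from -3.54 (BUB1B) to -0.69 (BUB3), and within the transcription class 3.65, from -4.15 (MYBL2) to -0.51 (LIN54).

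**Figure D5:**
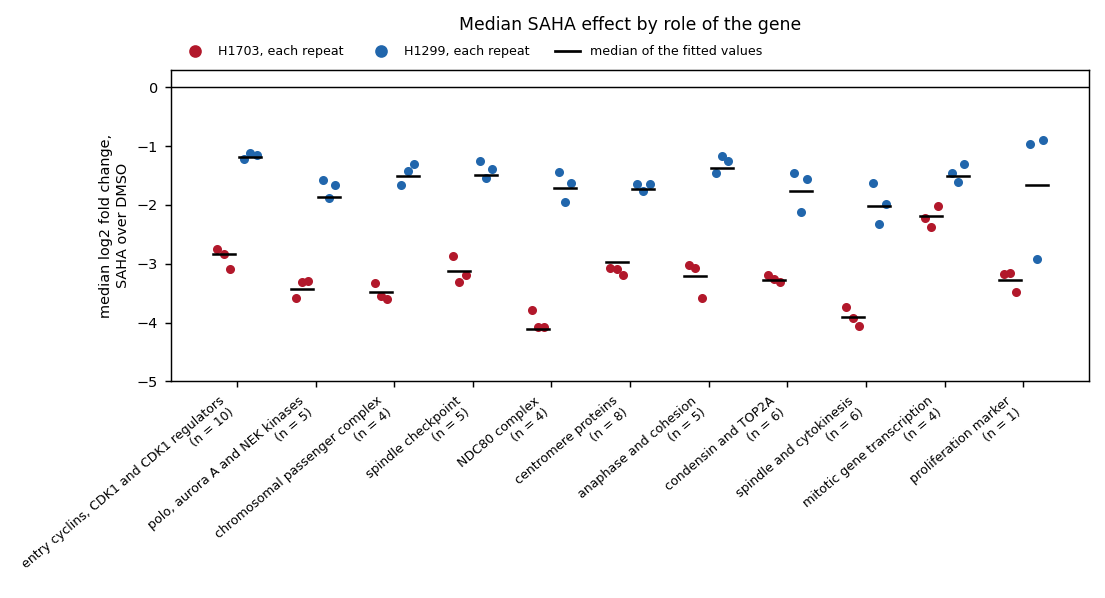
Median log2 fold change, SAHA over DMSO, of the genes of each role in each of 3 repeats of H1703 (red) and H1299 (blue), with the median of the fitted values as a bar; n is the number of genes. The H1703 points lie below the H1299 points in every role, and the blue point of MKI67 at -2.91 is repeat 2.

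The levels behind these changes were also compared between the lines. With DMSO, 36 of the 58 genes were lower in H1703 than in H1299 (32.2% of 19105 genes tested were), 5 were higher (34.3%; 66.5% differed in either direction) and 17 did not pass, with a median log2 difference, H1703 over H1299, of -0.66 beside 0.002 over all genes. With library totals alone the all-gene median moved to -0.17 and the members' to -0.86. NDC80 differed most, at 20.2 ± 1.77 CPM in H1703 against 172 ± 13.3 CPM in H1299 (SD, n = 3; -3.09 ± 0.14, edgeR adjusted p = 1.0e-10), 8.52-fold lower, while its partner NUF2 differed by -0.71 ± 0.13. NCAPG (-1.55 ± 0.13), CDC25A (-1.47 ± 0.17), CENPH (-1.46 ± 0.10) and MYBL2 (-1.37 ± 0.12) came next among the genes lower in H1703. The 5 genes that were higher in H1703 were CDC25B (1.66 ± 0.13, edgeR adjusted p = 4.8e-08), TOP2A (0.67 ± 0.12), CENPM (0.62 ± 0.18), PRC1 (0.49 ± 0.09) and WEE1 (0.49 ± 0.15). CENPM lost its call without H1703 DMSO replicate 2, its highest library (0.36, edgeR adjusted p = 0.052), and WEE1 with library totals alone (0.30, edgeR adjusted p = 0.082). PLK1, NEK2, AURKA, AURKB and CENPF were among the 17, with differences of -0.20 ± 0.13, -0.02 ± 0.11, 0.002 ± 0.24, -0.08 ± 0.11 and -0.15 ± 0.16.

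With SAHA, 55 genes were lower in H1703 (34.4% of all genes tested), 1 was higher (32.7%; 67.1% differed in either direction) and BUB3 (-0.14 ± 0.08) and ECT2 (-0.15 ± 0.14) did not pass. The median log2 difference was -2.24, beside -0.04 over all genes. Among all genes called here, 51.3% were lower in H1703, and 64.8% with library totals alone, where the all-gene median moved to -0.34 and the members' to -2.54. The members minus all genes gave -2.20 under either scaling, where again the subtraction removes the shift and is no separate check. NDC80 was again furthest apart, at 1.17 ± 0.156 CPM in H1703 against 50.4 ± 9.28 CPM in H1299 (-5.43 ± 0.18, edgeR adjusted p = 7.9e-12), followed by SPC25 (-4.32 ± 0.20), CCNA2 (-3.95 ± 0.11) and MYBL2 (-3.87 ± 0.14). The gene that was higher was CDC25B (0.55 ± 0.13, edgeR adjusted p = 0.0016), a call lost with library totals alone (0.26, edgeR adjusted p = 0.113). CENPM (-0.57 ± 0.20) lost its call without any of H1299 SAHA replicates 2 and 3 or H1703 SAHA replicates 2 and 3 (edgeR adjusted p from 0.051 to 0.091).

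Levels between genes were compared on the deposited FPKM values, which divide by a single length per gene. With SAHA in H1703, TPX2 (13.6 ± 0.772 FPKM, SD, n = 3) and BUB3 (13.0 ± 0.479 FPKM) led and did not differ beyond their spread, followed by CDC25B (9.41 ± 0.976 FPKM), while CENPE was lowest (0.0966 ± 0.0219 FPKM). With DMSO in H1703, TOP2A (85.6 ± 3.28 FPKM) and TPX2 (78.6 ± 0.784 FPKM) led, and CCNB1 (55.7 ± 2.1 FPKM) and CDC20 (54.6 ± 1.76 FPKM) followed within each other's spread. With SAHA in H1299, CDC20 (81.2 ± 9.92 FPKM) and TPX2 (70.1 ± 3.25 FPKM) led and CENPE was lowest (0.607 ± 0.218 FPKM). With DMSO in H1299, TPX2 (194 ± 1.32 FPKM), CDC20 (157 ± 9.11 FPKM) and MYBL2 (135 ± 5.75 FPKM) stood apart in that order, and LIN54 was lowest (1.96 ± 0.159 FPKM).

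Other genes of the same pathways, 75 in 7 lists, were all tested. In H1703, 58 fell and 4 rose (median -0.91); in H1299, 54 fell and 3 rose (median -0.79). The difference between lines was lower for 27 and higher for 3 (median -0.26). Over all genes tested, the shares were 32.6% lower and 34.7% higher in H1703, 30.4% lower and 33.3% higher in H1299, and 21.2% lower and 13.7% higher in the difference between lines.

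Cohesin and its regulators fell in 14 of 15 cases in H1703 (median -0.98) and 15 of 15 in H1299 (median -1.23), and here the interaction passed for 3 genes lower and 1 higher, with a median of 0.28. The core subunits STAG2 (-1.83 ± 0.09 in H1703 and -2.18 ± 0.14 in H1299) and RAD21 (-0.89 ± 0.09 in H1703 and -1.16 ± 0.10 in H1299) fell in both lines, and their difference between lines did not pass (0.28 ± 0.16, edgeR adjusted p = 0.21; 0.20 ± 0.14, 0.29). The S-phase cohesion genes ESCO2 (-3.74 ± 0.14 in H1703 and -1.44 ± 0.15 in H1299), an acetyltransferase of cohesin, and CDCA5 (-3.08 ± 0.12 in H1703 and -1.05 ± 0.10 in H1299), sororin, fell further in H1703 (differences -2.38 ± 0.21 and -2.10 ± 0.16), as did SGO2. PDS5A was the one whose difference was higher (0.53, edgeR adjusted p = 0.049). HDAC8, the deacetylase of cohesin's SMC3 subunit, was the member that did not pass in H1703 (-0.08, edgeR adjusted p = 0.57).

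The anaphase-promoting complex and its regulators fell in 12 of 17 cases in each line, with medians of -0.53 in H1703 and -0.52 in H1299, and none rose. Its inhibitor FBXO5, EMI1, changed by -2.68 ± 0.14 in H1703 and -1.49 ± 0.10 in H1299, and the scaffold subunit ANAPC1 by -1.21 ± 0.11 in H1703 and -1.14 ± 0.09 in H1299. ANAPC16 changed by -1.12 ± 0.08 in H1703 and -0.94 ± 0.09 in H1299. Of 26 other kinetochore and centromere genes, 23 fell in H1703 (median -1.75), and in H1299 18 fell and 1 rose (median -0.97). HJURP, the chaperone that loads CENPA, changed by -4.28 ± 0.13 in H1703 and -1.41 ± 0.38 in H1299, and KNTC1, part of the RZZ complex, by -2.18 ± 0.10 in H1703 and -1.32 ± 0.17 in H1299. KNL1, the checkpoint platform of the kinetochore, changed by -3.46 ± 0.19 in H1703 and -2.60 ± 0.15 in H1299, and SKA3, which tracks microtubule ends, by -3.48 ± 0.21 in H1703 and -1.85 ± 0.12 in H1299. The gene that rose in H1299 was CENPT (0.49 ± 0.10, edgeR adjusted p = 0.0017), an inner kinetochore protein that recruits NDC80. In H1703 it had 18.6 ± 3.88 CPM with SAHA against 20.2 ± 1.19 CPM with DMSO (-0.10 ± 0.15).

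The remaining lists are small. All 3 condensin II genes fell in both lines, NCAPG2 by -2.73 ± 0.08 in H1703 and -1.36 ± 0.08 in H1299 and NCAPD3 by -1.83 ± 0.10 in H1703 and -0.78 ± 0.08 in H1299 among them. Of 3 other checkpoint genes, TRIP13, the ATPase that remodels MAD2, fell (-3.63 ± 0.12 in H1703 and -1.88 ± 0.08 in H1299), and MAD2L1BP, a MAD2-binding protein that works with it, rose (0.43 ± 0.09 in H1703 and 0.31 ± 0.11 in H1299; edgeR adjusted p = 0.0024 in H1703 and 0.032 in H1299). Of 8 genes of the phosphatase axis of mitotic exit, MASTL, the Greatwall kinase, fell (-2.24 ± 0.13 in H1703 and -1.10 ± 0.10 in H1299), as did its substrate ARPP19 (-0.21 ± 0.08 in H1703 and -0.76 ± 0.09 in H1299) and the phosphatase subunit PPP1CA (-0.54 ± 0.11 in H1703 and -0.34 ± 0.08 in H1299). PPP1CC rose in H1703 and fell in H1299 (0.47 ± 0.14 in H1703 and -0.52 ± 0.08 in H1299, difference 0.92 ± 0.17, edgeR adjusted p = 0.00088), and ENSA rose in H1703 (0.19 ± 0.08). Of 3 other MuvB subunits, RBBP4 fell (-0.75 ± 0.15 in H1703 and -1.16 ± 0.11 in H1299) and LIN37 rose (0.97 ± 0.18 in H1703 and 1.34 ± 0.17 in H1299; edgeR adjusted p = 0.0011 in H1703 and 0.00011 in H1299). LIN37 had 18.8 ± 2.08 CPM with SAHA against 9.65 ± 2.41 CPM with DMSO in H1703, and 36.4 ± 3.53 CPM with SAHA against 13.8 ± 3.08 CPM with DMSO in H1299.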

How the data were processed

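The authors deposited 1 table per cell line holding raw counts and FPKM per gene and library, per the file headers; the deposited counts are whole numbers. Each deposited FPKM fits its count over the column total and a single length per gene (within 1% for 100.0% of 201185 values at counts of 10 or more). Per the submitters' processing notes, the tools were StringTie 1.3.3b, HISAT2 2.1.0, fastp, FastQC 0.11.9 and edgeR 3.30.3, with GRCh38, their roles unnamed; the counter and gene annotation were not given in the sources used here. Labels name both a directional kit and an unstranded library, so genes that overlap another are uncertain: 31 of the 58 overlap one, and for 13 the overlapping gene had 10% or more of their counts.

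Control columns carry a shorthand and were assigned to DMSO. No replicate libraries matched within counting error (chi-square over its degrees of freedom, 10.9 to 24.7). The tests on these counts used edgeR 4.0.16 (under R 4.3.3): genes kept by filterByExpr (at least 10 counts, total 15), sizes scaled by TMM, a robust quasi-likelihood fit, Benjamini-Hochberg adjustment over all genes tested, and calls at adjusted p below 0.05. Each line was fitted alone (3 against 3), and 1 fit over 12 libraries gave the interaction and the line differences. Alternatives were RLE scaling, library totals alone, DESeq2 1.42.0, no filter, the repeat as a block, 1 fit over 12 libraries for the effect within a line, each library left out, and a 2-fold limit. The fits were tested on simulated data with 200 changed genes, out of 16858 genes tested for H1299, 16924 for H1703 and 18302 for the interaction. Genes of low level were not among those changed. Far more genes were called in the real data, so the share of false calls there was not measured. False calls made up 7.8% of calls in H1299, 7.35% in H1703 and 6.67% in the interaction, above the level set by 0.05. Changes of 1 on the log2 scale were recovered for 89% of genes in H1299, 90% in H1703 and 70% in the interaction. For changes of 2 the shares were 100%, 99% and 98%. The batch field of the labels holds the repeat number, by which SAHA and DMSO libraries could be paired, as in the block alternative. Their deviations from group means correlated by -0.03 to 0.03 for equal numbers and -0.04 to 0.04 for others, so no pairing showed in the values.

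The members and lists were chosen with earlier results of these data known. Values in every library are given by rule for the gene with the highest mean CPM and those with the lowest and highest interaction in each role, and for every gene not called for SAHA against DMSO within a line; of other pathway genes, the 2 with the smallest adjusted p per line and list and those called against the list's median are named, with fold changes. Other genes named, and the promoters printed, were chosen after their values were seen.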

Additional observations from a re-analysis of the deposited data

Results flagged for a closer look

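By the interaction test over all 12 libraries, the response to SAHA differed between the lines for 51 of the 58 genes, all falling further in H1703. Over all 19105 genes tested, 21.2% had a lower and 13.7% a higher fold change in H1703. No dose is tied to a library, so a difference in dose cannot be told apart from a difference between lines. The differences that follow are log2 values, the SAHA effect in H1703 minus that in H1299, for the genes given in every library above. The largest were those of SPC25 (-3.30), CCNA2 (-2.84), AURKB (-2.53), MYBL2 (-2.50) and HMMR (-2.43). NDC80 (-2.34), PLK1 (-2.32), ANLN (-2.27), CDC20 (-2.26), NUF2 (-2.17), NCAPH (-2.11), CENPI (-2.06) and CDCA8 (-2.0) lay beyond a 4-fold difference. Smaller differences were those of TTK (-1.86), MKI67 (-1.68), WEE1 (-1.65), TOP2A (-1.62), CENPF (-1.29) and CDC25B (-1.11), and the smallest of this group those of TPX2 (-0.96), ESPL1 (-0.90), INCENP (-0.72), CCNF (-0.55) and CENPH (-0.54). The SPC25 value rests on 7 to 16 counts per H1703 SAHA library, and MKI67 and CENPH, like LIN9, lost their calls under some of the alternatives given below.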

How the results depend on the processing

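Under scaling, tool, filter and block alternatives the members called were 58 in H1703, 55 to 56 in H1299 and 49 to 54 in the interaction; the 2-fold limit left 56 in H1703, 51 in H1299 and 44 in the interaction. Leaving out 1 library at a time gave 58 (H1703), 56 to 57 (H1299), 50 to 53 (interaction), 41 to 42 (lines with DMSO; 36 to 37 lower, 4 to 5 higher) and 55 to 56 (lines with SAHA; 54 to 55 lower, 1 higher). With the 2-fold limit, calls over all genes came to 5946 (H1703, against 11641 without it), 5251 (H1299, 11016), 3593 (interaction, 6672), 7137 (lines with DMSO, 12712) and 7238 (lines with SAHA, 12814), and members between the lines with DMSO to 15, of which 14 were lower and 1 higher. No member (0) was higher in H1703 with SAHA under the 2-fold limit or with library totals alone. Between the lines with DMSO, library totals alone called 46 members lower and 4 higher, and DESeq2 40 lower and 5 higher. The ECT2 interaction turned to -0.023 with library totals alone, and ran from -0.073 (without H1299 SAHA replicate 2) to 0.285 (without H1299 SAHA replicate 1) over single libraries left out, with -0.029 without H1703 SAHA replicate 3; it passed in none, and the cause was not tested. The replicate block changed no member's call other than MKI67 in H1299 (-1.62) and CENPE (-1.09), CENPH (-0.54), LIN9 (-0.65) and MKI67 (-1.72) in the interaction, and 1 more gene lower between the lines with DMSO (37 against 36).

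Other interaction calls moved too. BUB3 passed with library totals alone (-0.34), NCAPD2 with them (-0.39) and without H1299 SAHA replicate 1 (-0.34) or H1703 SAHA replicate 3 (-0.37), SMC2 without H1299 SAHA replicate 2 (-0.47), and CENPE with library totals alone, with DESeq2 and without H1299 SAHA replicate 2, H1299 DMSO replicate 3 or H1703 DMSO replicate 1 (-1.06 to -1.38). CENPH and MKI67 missed with no filter (edgeR adjusted p = 0.074 for CENPH and 0.056 for MKI67), and MKI67 without H1703 SAHA replicate 2 (0.051). Depth limits the lowest genes: 3 members had under 20 counts in an H1703 SAHA library.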

Other observations

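Among the 58 genes, the difference between lines followed the length implied by the deposited FPKM values, as a description. Spearman's rho between this length and the interaction was 0.51, against 0.04 over all 19105 genes tested, and the points share libraries and a fit. The implied length need not be that of a transcript or of the gene. By it AURKB has 5941 bases, but the gene lies at chr17:8204733-8210600, a shorter span. The 10 members shortest by this measure (1985 to 3949 bases, SPC25, UBE2C, CDC20, PTTG1, MYBL2, TPX2, CCNB1, NDC80, CENPM and CENPA) had a median difference of -2.05, with medians of -3.71 in H1703 and -1.67 in H1299. The 10 longest by it (11231 to 18252 bases, ASPM, WEE1, CENPE, PKMYT1, PRC1, CENPF, ESPL1, MKI67, LIN54 and SMC4) had a median difference of -1.35, with medians of -3.13 in H1703 and -1.85 in H1299. Between the implied length and the change within a line, rho was 0.31 for H1703 and -0.06 for H1299.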
